A study of Pleurotus ostreatus with 53 samples.

Results

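HELPO2 is a family of Helitron transposons in the oyster mushroom Pleurotus ostreatus, and its copies were followed through small RNA, mRNA and CG methylation. The members were the transposable element (TE) copies whose name starts with HELPO2 in the deposited TE tables, which gave 14 of 1051 TE copies. The samples were 6 groups: mycelium, primordium and fruitbody of the dikaryon N001 (strain label N0001), mycelium of HyB (strain label N001_HyB, a dikaryon from a cross of PC9 and PC15), and mycelium of the monokaryons PC9 and PC15. A monokaryon has 1 kind of nucleus and a dikaryon carries a pair of different nuclei. No other genotype, treatment or age is given. Each group had 3 libraries per assay, except N001 primordium bisulfite sequencing with 2, which made 53 libraries.

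Helitrons are DNA transposons that are copied by a rolling-circle mechanism with the help of an element-encoded helicase, and shortened copies that encode no helicase depend on the enzyme of full copies. In fungi, small RNAs and methylation of cytosines at CG sites are both known as marks of silenced transposons. TE transcription, small RNA and methylation are therefore read side by side here, copy by copy.

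The mRNA libraries held 19628882 to 30123572 reads, and mRNA levels are given in RPM, reads scaled to that total. Small RNA totals, summed over genes and TE copies, ran from 191411 to 5746479 per library and are the base of small RNA RPM. Coverage behind the methylation levels is unknown. How the counting treated reads that match several places is not stated, so reads of near-identical copies cannot be told apart. Genes carry numbers alone, so the labelled tissues were not checked against marker genes. In tissue libraries such as these, fewer cells of a type and less RNA per cell cannot be told apart. Replicates 2 and 3 were closer to each other than to replicate 1 in 11 of the 12 sets of RNA libraries (chi-square of the read counts), and no batch is given in the labels. The closest mRNA pairs were HyB replicates 2 and 3 and N001 primordium replicates 2 and 3, at 3.72 and 1.56 per degree of freedom, little above sampling noise. The other pairs of these groups were at 492 and 503 in HyB and 268 and 266 in primordium. Whether the close pairs are independent libraries was not tested, and the main tests count each library as a replicate. All TE copies together took 154754 ± 145931 small RNA RPM in PC9 and 680103 ± 10388 in PC15 (SD, n = 3 each), and PC9 replicate 1 stood apart at 323254.

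The 14 copies lay on 8 scaffolds and differed in length from 73 to 8814 bases. 5 copies had exactly 6389 bases: scaffold 1 (619761 to 626149), scaffold 6 (1150050 to 1156438), scaffold 7 (1635256 to 1641644) and scaffold 8, where the first ran from 1367660 to 1374048 and the second from 2234922 to 2241310. A 4968-base copy lay on scaffold 8 (1721273 to 1726240) and a 4970-base copy on scaffold 5 (387607 to 392576). The longest, of 8814 bases, lay on scaffold 11 (2114358 to 2123171). The other 6 copies were short: 510 bases on scaffold 8 (1150913 to 1151422), 413 (1795682 to 1796094), 96 (57665 to 57760) and 73 bases (316528 to 316600) on scaffold 6, 223 bases on scaffold 10 (1359386 to 1359608) and 93 bases on scaffold 4 (2132009 to 2132101). Copies are named below by length, and those of 6389 bases by scaffold.

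3 copies overlapped another annotated TE by at least 50 bases. Smaller overlaps were 6 bases of the 413-base copy with Copia_4 (1795551 to 1795687) and 1 base of the 510-base copy with Gypsy_7 (1150507 to 1150913). The 8814-base copy holds a whole Gypsy_6 retrotransposon (2115765 to 2122948, 7184 bases), which takes 81.5% of its length. The 4970-base copy lies inside a Gypsy_29 copy (380083 to 398290) and the 223-base copy inside another (1355556 to 1363838). No copy overlapped a gene. The nearest gene lay 55 to 6173 bases away, and 9 copies had a gene within 1 kb.

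A methylation value was listed for all 14 copies in PC15, for 12 copies in HyB and in each N001 stage, and for 4 copies in PC9. The 4 with a PC9 value were the 8814-, 4970-, 4968- and 93-base copies. The other 10, or 71.4% of the family, had none, against 31.6% of all TE copies. The scaffold 1 copy had values in PC15 alone, the second scaffold 8 copy in HyB and PC15, and the scaffold 7 copy in PC15 and the N001 stages. Whether a copy without a value is missing from a strain or was not covered was not tested.

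The 8814-base copy is described first, since its reads were nearly all those of the Gypsy_6 copy inside it. Over the 18 libraries it had 645 mRNA reads, against 630 for the nested Gypsy_6 copy, a difference of 0 to 3 reads per library. Small RNA gave 9280 reads, against 8908 for Gypsy_6. In PC15, where it had few small RNA reads, the shares were less alike, with 98, 39 and 54 reads against 80, 24 and 25. Methylation of both differed by at most 1.33 percentage points in any library. Its values are therefore values of HELPO2 and Gypsy_6 sequence together, and family sums are given with and without it. The 4970-base copy differed in this respect. It held 18.3% of the small RNA reads and 0.119% of the mRNA reads of the Gypsy_29 copy around it, which had 42395 and 24293 reads.

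**Figure D1:**
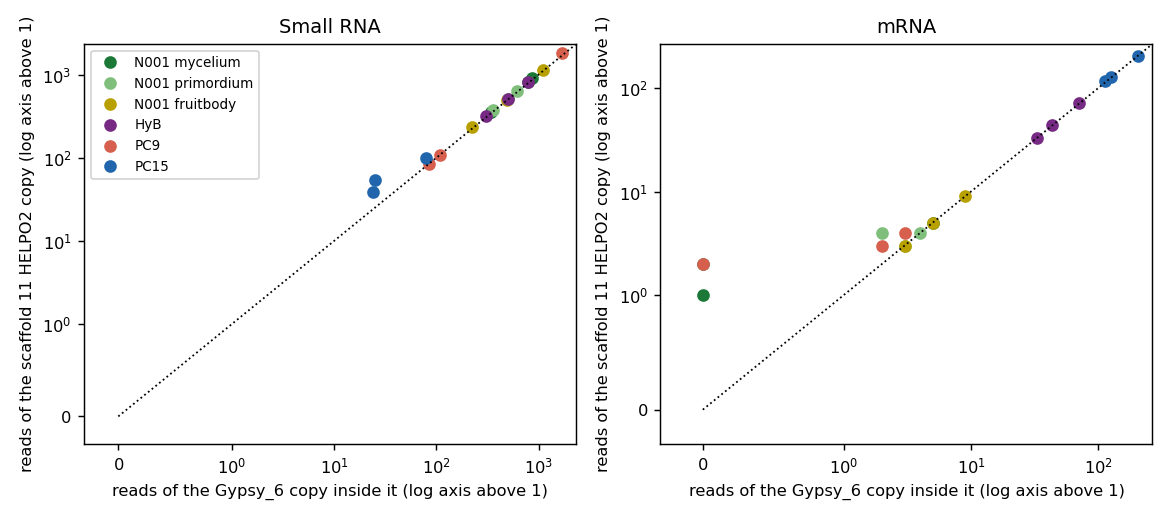
Reads of the 8814-base HELPO2 copy on scaffold 11 against reads of the Gypsy_6 copy that lies inside it, 1 point per library, for small RNA (left) and mRNA (right), on axes that are logarithmic above 1. Most points lie on or just above the dotted line of equality, with 9280 against 8908 small RNA reads and 645 against 630 mRNA reads over all libraries. PC15 small RNA (98, 39 and 54 against 80, 24 and 25 reads) and some mRNA points with few reads lie further above it.

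Small RNA set the strains apart. The 14 copies together reached 219.5 ± 185 RPM in PC9 and 29283 ± 5884 RPM in PC15 (SD, n = 3 each). HyB stood between them at 3820.0 ± 1107 RPM (SD, n = 3), and the N001 stages at 8598 ± 5191 RPM in mycelium, 4769 ± 902 RPM in primordium and 3689 ± 421 RPM in fruitbody (SD, n = 3 each). In order from high to low the groups were PC15, N001 mycelium, N001 primordium, HyB, N001 fruitbody and PC9. PC15 lay above all other libraries and PC9 below all others, while the 4 groups between them overlapped each with the next. In PC9 replicate 1 was the highest, with 433, 104 and 122 RPM in replicates 1, 2 and 3, and the mean without it was 113 ± 13.4 RPM (SD, n = 2). The N001 mycelium libraries had 2813, 10129.6 and 12851 RPM. Without the copy that holds Gypsy_6, the family sum was 7655 ± 4836 RPM in N001 mycelium, 3527 ± 467 in primordium, 2660 ± 444 in fruitbody, 3269 ± 1330 in HyB, 51.7 ± 59.1 in PC9 and 29208 ± 5890 in PC15 (SD, n = 3 each), with the same order of groups. The PC9 sum is thus mostly that copy: the other 13 held 19.7% of its reads on average. Of all small RNA reads on TE copies, HELPO2 held 0.151 ± 0.0185% in PC9 and 4.31 ± 0.919% in PC15 (SD, n = 3 each), or 0.029% in PC9 and 4.30% in PC15 without that copy. The 15 copies of the other Helitron family, HELPO1, had 886 ± 35.2 RPM in PC9 and 825 ± 201 RPM in PC15 (SD, n = 3 each), where the libraries overlapped.

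**Figure D2:**
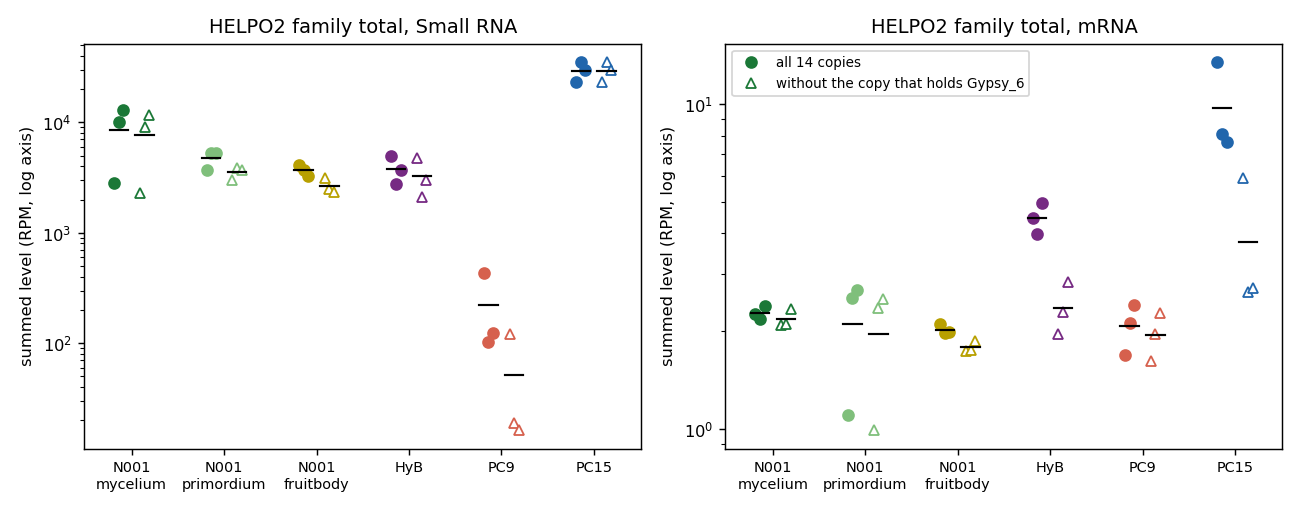
Summed small RNA (left) and mRNA (right) level of the HELPO2 copies in RPM on log axes, with all 14 copies (filled circles) and without the copy that holds Gypsy_6 (open triangles); points are libraries and lines are means. In small RNA, PC9 lies lowest and PC15 highest near 29283 RPM; in mRNA, HyB and PC15 come down to 2.36 and 3.76 RPM once the copy that holds Gypsy_6 is left out.

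Between PC9 and PC15, small RNA was lower in PC9 for 8 of the 11 HELPO2 copies that passed the filter on low counts, and none was higher (edgeR quasi-likelihood test, Benjamini-Hochberg adjusted over 633 TE copies, threshold 0.05). Over all TE copies tested, 46.3% differed, 29.4% lower and 16.9% higher in PC9. The median log2 difference was -8.40 over the HELPO2 copies tested and -1.14 over all TE copies. A copy that passed the filter through PC15 alone had to differ, so the count describes the copies tested and does not stand for all 14. Inside the TE table, TMM scaling turned the median of all TE copies to 0.48 and their split to 193 higher and 133 lower, against 107 and 186, and all 8 HELPO2 copies kept their direction and call. Without the first PC9 replicate, which held 5746479 reads, 9 copies passed.

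The 413-base copy on scaffold 6 had the highest mean small RNA level of the family in PC15 and in N001 mycelium. In HyB the first scaffold 8 copy was above it on average, in primordium and PC9 the 8814-base copy, and in fruitbody the 4968-base copy. It had 1.04, 0 and 0 RPM in the 3 PC9 libraries (6 reads in all), against 11335, 12585 and 12236 RPM in PC15. In PC15 this short copy alone took 42.0 ± 6.46% of the family's small RNA reads (SD, n = 3). The groups did not overlap, and the log2 difference was -14.16 ± 1.96 (SE, adjusted p = 4.81e-05). Without PC9 replicate 1, which held all 6 reads, it was -16.18 (adjusted p = 5.58e-05). Per kb, its PC15 level of 29182 RPM was above that of the next copy, the 510-base copy, at 6788 RPM.

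The 510-base copy on scaffold 8 followed the same order of groups. It had 0.522, 1.57 and 0 RPM in PC9, against 2640.4, 4076 and 3669 RPM in PC15 (log2 difference -12.03 ± 2.28 SE, adjusted p = 0.00057). Among the copies of 6389 bases, the first on scaffold 8 had 0.348, 2.35 and 0 RPM in PC9, against 4040.3, 6031 and 3842 RPM in PC15. That is a log2 difference of -12.21 ± 2.0 (SE, adjusted p = 0.000185). The scaffold 6 copy had 0.87, 0 and 0 RPM in PC9, against 2683, 2736 and 2561 RPM in PC15, the most even set of values in PC15. In each of these 3 copies PC9 was at 0 to 5 reads per library, while PC15 had over 1000 reads in every library. Since PC9 was near 0, the sizes moved with single PC9 libraries: without replicate 1 the scaffold 6 copy was at -14.00 and the first scaffold 8 copy at -11.60, and without replicate 2 the 510-base copy was at -12.72 and the first scaffold 8 copy at -13.54. All kept their call.

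The scaffold 7 copy had no small RNA read in PC9, against 112, 750.0 and 13.3 RPM in PC15 (148, 480 and 8 reads). With the reads of each group pooled, it was at least 648-fold lower in PC9 (floor of 3 reads over the PC9 group). This is no bound for single libraries. The second scaffold 8 copy had 1.39, 1.57 and 2.5 RPM in PC9, against 159, 1564 and 161 RPM in PC15. For both, PC15 replicate 2 was far above the other PC15 libraries. Without it the log2 differences were -9.08 (adjusted p = 0.0152) and -6.43 (adjusted p = 0.0251), against -11.26 and -8.40 with it. Without PC15 replicate 3 the scaffold 7 copy was at -11.86 (adjusted p = 0.00582).

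The small RNA reads of the 4968- and 4970-base copies in PC9 came mostly from replicate 1. The 4968-base copy had 302, 5 and 3 reads in the PC9 libraries and the 4970-base copy 273, 7 and 3. The 4968-base copy had 52.6, 3.92 and 3.75 RPM in PC9, against 1652, 5875 and 5729 RPM in PC15 (log2 difference -7.74 ± 1.26 SE, adjusted p = 0.000176). The 4970-base copy had 47.5, 5.49 and 3.75 RPM in PC9, against 495, 1187 and 1262 RPM in PC15 (log2 difference -5.65 ± 1.10 SE, adjusted p = 0.000676). Both were highest in PC9 replicate 1, and without it their log2 differences were -10.11 (adjusted p = 6.54e-06) and -7.66 (adjusted p = 1.29e-05). With PC9 and PC15 alone in the fit, the 4970-base copy no longer passed (adjusted p = 0.0529).

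The 8814-base copy, counted with the Gypsy_6 copy inside it, was not lower in PC9. It had 313, 84.7 and 106 RPM in PC9, against 74.4, 60.9 and 89.7 RPM in PC15, and the groups overlapped (log2 difference 1.16 ± 0.78 SE, adjusted p = 0.225). Its reads beyond those of Gypsy_6 were 86, 0 and 0 in PC9 and 18, 15 and 29 in PC15. They were not tested apart, so the values do not describe HELPO2 sequence alone. The 96-base copy had 15.7, 3.92 and 5.0 RPM in PC9, against 4.55, 84.4 and 128 RPM in PC15, and did not pass (adjusted p = 0.0738). The 73-base copy, the third that did not pass, had no small RNA read in any PC9 or PC15 library. Below the filter, the scaffold 1 copy had 1 read in PC9 and 8 in PC15, the 223-base copy 0 and 4, and the 93-base copy had no small RNA read in any of the 18 libraries.

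**Figure D3:**
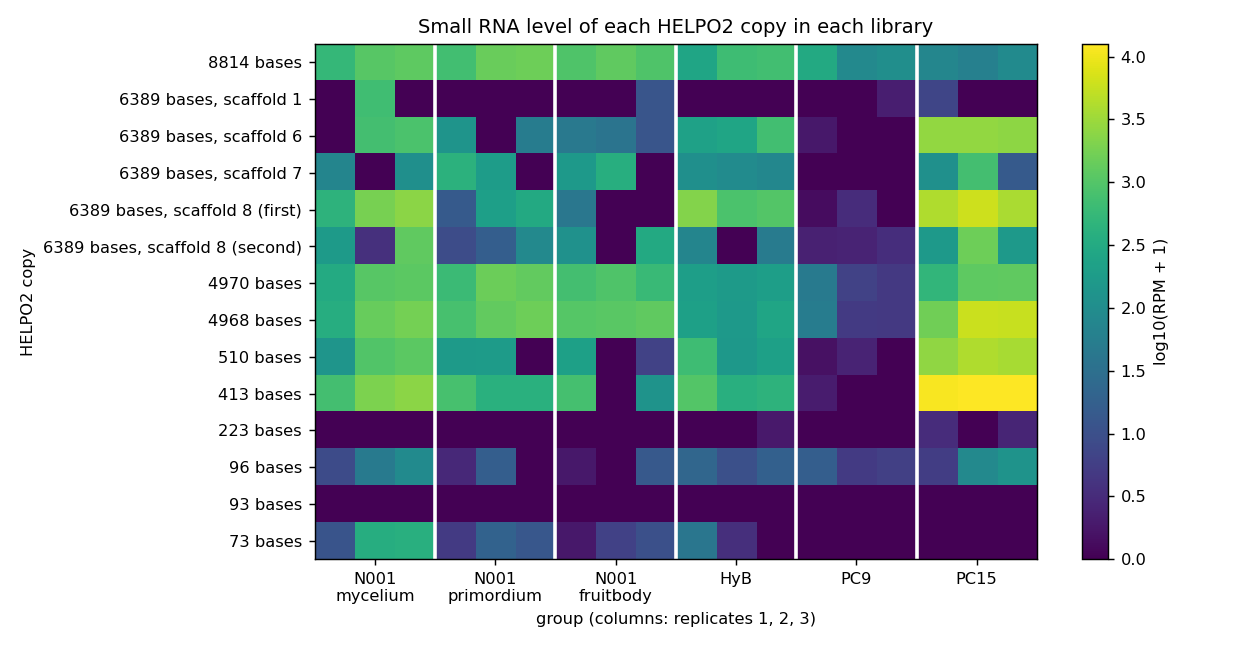
Small RNA level of each HELPO2 copy (rows, by length) in each library (columns, 3 replicates per group) as log10 of RPM plus 1. PC9 is dark and PC15 bright for the 4968- and 4970-base copies, those of 510 and 413 bases and most of 6389 bases, while the 8814-base copy is not darker in PC9.

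HyB, which carries nuclei of both strains, was compared with each parent. Against PC9, small RNA was higher in HyB for 8 of 11 copies and lower for none, where 33.2% of all TE copies tested were higher and 2.21% lower (35.4% differed). Copies near 0 in PC9 passed the filter through other groups, so this count describes the copies tested alone. The 413-base copy had 1002, 382 and 452 RPM in HyB, against 1.04, 0 and 0 RPM in PC9 (log2 difference 9.86 ± 1.71 SE, adjusted p = 0.000573). The scaffold 7 copy had 111, 93.0 and 79.2 RPM in HyB and no read in PC9, at least 248-fold higher. The 4968-base copy had 213, 159 and 257 RPM in HyB, against 52.6, 3.92 and 3.75 RPM in PC9 (adjusted p = 0.0174). That call and the call of the 4970-base copy were lost without PC9 replicate 2 (adjusted p = 0.0584 and 0.0569), and the first also without PC9 replicate 3 (0.0547). Without PC9 replicate 1 the log2 differences of the 4968- and 4970-base copies were 5.71 and 5.29, against 3.34 and 3.28 with it. In the same setting the 413-base copy was at 11.88, the scaffold 6 copy at 11.27 and the first scaffold 8 copy at 9.82, against 9.86, 9.43 and 10.44. Without PC9 replicate 2 the 510-base and first scaffold 8 copies were at 9.38 and 11.76. Without HyB replicate 1 the 510-base copy was at 7.78, and without HyB replicate 3 the scaffold 6 copy at 8.71. The count became 5 with HyB and PC9 alone in the fit. DESeq2 split all TE copies into 164 higher and 121 lower, against 210 and 14.

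Against PC15, small RNA in HyB was lower for the 413- and 4968-base copies and higher for the 8814- and 73-base copies, 4 of 11, where 22.6% of all TE copies tested differed, 3% lower and 19.6% higher. The 4968-base copy had 213, 159 and 257 RPM in HyB, against 1652, 5875 and 5729 RPM in PC15 (log2 difference -4.40 ± 1.08 SE, adjusted p = 0.00743), and kept its call when any library was left out. The 413-base copy averaged 612 ± 340 RPM in HyB and 12052 ± 645 RPM in PC15 (SD, n = 3 each), a log2 difference of -4.30 ± 1.31 (SE, adjusted p = 0.0239). Its call was lost without PC15 replicate 2 or 3 or HyB replicate 2 or 3, with adjusted p of 0.0578, 0.054, 0.0925 and 0.0951. The 8814-base copy had 259.6, 665 and 727 RPM in HyB, against 74.4, 60.9 and 89.7 RPM in PC15 (log2 difference 2.87 ± 0.82 SE, adjusted p = 0.0185). It lost its call without PC15 replicate 1, 2 or 3 or HyB replicate 2 or 3, with adjusted p of 0.0563, 0.0802, 0.0589, 0.0511 and 0.0602.

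The call of the 73-base copy rested on few reads. It had 48, 2 and 0 reads in HyB, against none in PC15 or PC9, and was at least 13.8-fold higher than in PC15 and at least 42.1-fold higher than in PC9 (floor of 3 reads over each group). Without HyB replicate 1 it passed against neither parent (adjusted p = 0.28 and 0.131). Against PC15 it was also lost without PC15 replicate 1, 2 or 3 or HyB replicate 2 (adjusted p = 0.112, 0.109, 0.104 and 0.0504). Of the 5 copies of 6389 bases, the scaffold 6 copy and both scaffold 8 copies averaged 0.15, 0.292 and 0.0654 of their PC15 means in HyB. The scaffold 7 copy averaged 94.3 RPM in HyB and 292 in PC15, where its libraries had 112, 750.0 and 13.3 RPM. None of these passed the test. The scaffold 1 copy, below the filter, had no read in HyB.

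N001 mycelium and HyB are both dikaryons sampled as mycelium. None of 11 HELPO2 copies differed in small RNA by edgeR, where 16% of all TE copies tested differed, 1.11% higher and 14.8% lower in N001. At an unadjusted p under 0.05 there were 3 HELPO2 copies, against 188 of 633 TE copies tested. DESeq2 called 3 HELPO2 copies. The median log2 difference of the HELPO2 copies was 1.48, against -0.33 over all TE copies. Inside the TE table, TMM scaling called 2 copies and moved the median of all TE copies to 0.11. The 4968-base copy had 360.4, 1387 and 1747 RPM in N001 mycelium, against 213, 159 and 257 RPM in HyB (log2 difference 2.47 ± 0.99 SE, adjusted p = 0.1). The 4970-base copy had 319, 1084 and 1164 RPM in N001 mycelium, against 197, 172 and 198 RPM in HyB (adjusted p = 0.127). Without HyB replicate 1, 1 copy passed.

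Through the N001 stages no copy changed by the test. From mycelium to primordium edgeR called 0 of 11 HELPO2 copies, 2 had an unadjusted p under 0.05, and DESeq2 called 0. Of all TE copies tested 0% passed, with 45 at an unadjusted p under 0.05 and 3 by DESeq2. From primordium to fruitbody edgeR and DESeq2 called 0 of 11, 1 had an unadjusted p under 0.05, and again 0% of all TE copies tested passed, with 17 at an unadjusted p under 0.05. The summed level of the 5 copies of 6389 bases was 2872 ± 2008 RPM in mycelium, 477 ± 89.8 RPM in primordium and 368 ± 34.0 RPM in fruitbody (SD, n = 3 each). The lowest mycelium library was at 692 RPM and the highest primordium library at 578 RPM. The first scaffold 8 copy had 449.7, 1813 and 2431 RPM in mycelium, 13.8, 207 and 313 RPM in primordium and 42.0, 0 and 0 RPM in fruitbody. The 3 copies with both small RNA reads and PC9 methylation values stayed at 943, 1242 and 1029 RPM (8814 bases), 1165, 1229 and 1146 RPM (4968 bases), and 856, 1155 and 761 RPM (4970 bases) on average in mycelium, primordium and fruitbody.

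Small RNA of the copies of equal length differed between replicates of a group, by an amount that differed from copy to copy. The scaffold 1 copy had 532 reads in N001 mycelium replicate 2, and 15 in the other 17 libraries together. The second scaffold 8 copy had 112, 2 and 925 reads in the N001 mycelium libraries, and the scaffold 6 copy 0, 569 and 647. In PC15 the SD over replicates was 3.36% of the mean for the scaffold 6 copy and 26.1% for the first scaffold 8 copy, which held most of the reads, 137% for the scaffold 7 copy and 129% for the second scaffold 8 copy, and 30.3% for the sum of the 5 copies. In HyB it was 16.8% for the scaffold 7 copy, 53.0% to 90.8% for the other copies with reads, and 36.0% for the sum. In N001 primordium the 4 copies with reads varied by 85.2% to 117% of their means and their sum by 18.8%. In fruitbody all 5 varied by 56.4% to 173% and their sum by 9.24%. In N001 mycelium the sum itself varied by 69.9%. How the counting placed reads that match several copies was not tested.

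HELPO2 was scarce in mRNA. All 14 copies together held 2.28 ± 0.1 RPM in N001 mycelium, 2.11 ± 0.872 in primordium, 2.03 ± 0.0755 in fruitbody, 4.46 ± 0.486 in HyB, 2.08 ± 0.360 in PC9 and 9.73 ± 3.21 in PC15 (SD, n = 3 each). That was 0.0900% of TE reads in PC9 and 0.0660% in PC15, while HELPO1 held 60.1% in PC9 and 2.70% in PC15. From high to low the groups ran PC15, HyB, N001 mycelium, N001 primordium, PC9 and N001 fruitbody, with PC15 above HyB and HyB above the rest without overlap. Without the copy that holds Gypsy_6, the family held 2.36 ± 0.442 RPM in HyB, 3.76 ± 1.87 in PC15 and 1.79 to 2.18 in the other groups, and each group overlapped with the next. In PC15 the other 13 copies held 37.3 ± 5.95% of the HELPO2 mRNA reads (SD, n = 3).

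3 copies passed the filter on low counts in mRNA, so the counts below say little about the family. The 413-base copy, highest in small RNA in PC15, had no mRNA read in any library. The 96-base copy had 2 mRNA reads in all, and 9 further copies had 12 to 75. The 73-base copy had the highest mean over groups per kb, 2.26 RPM per kb, and the 93-base copy followed at 1.88. The 73-base copy had 33, 13 and 13 reads in N001 mycelium, primordium and fruitbody, 10 in HyB, 5 in PC9 and none in PC15.

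Between PC9 and PC15, 2 of the 3 copies were lower in PC9, where 88.6% of all TE copies tested differed, 84.8% lower and 3.74% higher. Both had passed the filter through PC15 and HyB, so the count describes the copies tested alone. The 8814-base copy had 0.0808, 0.164 and 0.134 RPM in PC9, against 7.52, 5.46 and 4.96 RPM in PC15 (log2 difference -5.51 ± 0.77 SE, adjusted p = 2.17e-07). Under DESeq2, which here scales inside the TE table, it was -0.25 (adjusted p = 0.711). The scaffold 6 copy had 0.0808, 0.123 and 0.268 RPM in PC9, against 0.693, 0.725 and 0.889 RPM in PC15, a log2 difference of -2.27 ± 0.79 (SE, adjusted p = 0.0087) that turned to 1.47 under TMM inside the TE table (adjusted p = 0.0962) and 2.95 under DESeq2 (adjusted p = 0.000234). Those settings moved the median of all TE copies from -7.36 to -3.73 and -1.81, and DESeq2 split them into 103 higher and 133 lower, against 16 and 363. Relative to library totals both copies were thus lower in PC9, by less than the median TE copy. Without PC9 replicate 3 the scaffold 6 copy was at -2.86 (adjusted p = 0.00701).

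The scaffold 7 copy was the steadiest. It averaged 0.971 RPM in N001 mycelium, 1.16 in primordium, 1.05 in fruitbody, 1.09 in HyB, 1.22 in PC9 and 0.873 in PC15, with 10 to 40 reads in every library. It passed none of the 6 comparisons, with adjusted p of 0.496 to 1. It had 23, 33 and 31 mRNA reads in PC9, the strain with no methylation value and no small RNA read for it.

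**Figure D4:**
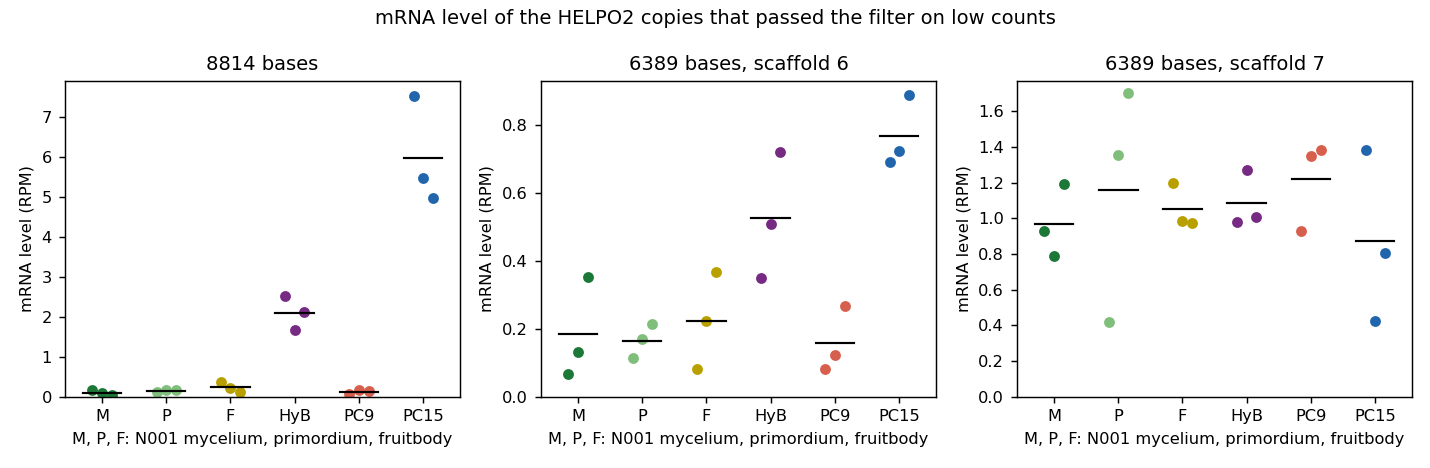
mRNA level in RPM of the 3 HELPO2 copies that passed the filter on low counts, by library (points) and group mean (lines). The 8814-base copy is at 4.96 to 7.52 RPM in PC15 and under 0.4 RPM in PC9 and N001, the scaffold 6 copy stays under 1 RPM, and the scaffold 7 copy shows no order of groups.

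In HyB, the 8814-base copy had 2.52, 1.68 and 2.11 RPM, against 0.0808, 0.164 and 0.134 RPM in PC9, and was higher (log2 difference 4.01 ± 0.74 SE, adjusted p = 4.03e-05). This was 1 of 3 copies, where 49.1% of all TE copies tested differed, 43.7% higher and 5.37% lower, or 120 higher and 68 lower by DESeq2 against 187 and 23. Without HyB replicate 1, 2 of the copies passed. Against PC15, the 8814-base copy was lower in HyB by a log2 difference of -1.50 ± 0.62 (SE, adjusted p = 0.0285), which turned to 1.13 under TMM inside the TE table (adjusted p = 0.0995) and to 2.39 under DESeq2 (adjusted p = 1.16e-08). It was 1 of 3 copies, where 77.8% of all TE copies tested differed, 73.4% lower and 4.44% higher, or 44 lower and 139 higher by DESeq2. Its call was lost without PC15 replicate 1, 2 or 3 or HyB replicate 2 or 3, with adjusted p of 0.0666, 0.0601, 0.0591, 0.104 and 0.0696, and with HyB replicates 2 and 3 merged into 1 library (0.096).

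In N001 mycelium the 8814-base copy had 0.166, 0.0876 and 0.0442 RPM, against 2.52, 1.68 and 2.11 RPM in HyB (log2 difference -4.29 ± 0.75 SE, adjusted p = 2.49e-05). It was 1 of 3 copies, where 39.3% of all TE copies tested differed, 37.6% lower and 1.64% higher, or 103 lower and 59 higher by DESeq2 against 161 and 7. Without N001 mycelium replicate 1 the difference was -4.89 (adjusted p = 0.000126). Between the N001 stages none of the 3 passed by edgeR or DESeq2 and none had an unadjusted p under 0.05. Of all TE copies tested 2.8% differed between primordium and mycelium (0.467% higher and 2.34% lower in primordium) and 0% between fruitbody and primordium. At an unadjusted p under 0.05 there were 41 and 20 of 428 TE copies in these comparisons.

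Methylation of the family was unlike across copies and strains. The median over copies with a value was 43.9 ± 2.28% in N001 mycelium, 41.0 ± 3.55% in primordium, 45.6 ± 4.33% in fruitbody, 31.5 ± 1.10% in HyB, 48.2 ± 0.495% in PC9 and 23.7 ± 0.959% in PC15 (SD, n = 3, primordium n = 2). PC9 rests on 4 copies and the others on 12 or 14. Over those 4 copies alone the medians were 60.2%, 63.1% and 63.0% in the N001 stages, 30.2% in HyB, 48.2% in PC9 and 23.9% in PC15. The median of all TE copies was 54.0% in N001 mycelium, 27.1% in HyB, 53.0% in PC9 and 23.1% in PC15.

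Between PC9 and PC15, 3 of the 4 copies were higher in PC9 by limma (adjusted over 716 TE copies, threshold 0.05), where 83.7% of all TE copies tested differed, 79.5% higher and 4.19% lower. The 8814-base copy had 61.9%, 61.7% and 62.0% in PC9, against 22.8%, 24.9% and 25.2% in PC15, a difference of 37.6 ± 1.08 percentage points (SE, adjusted p = 8.16e-13). The 4968-base copy had 46.2%, 49.3% and 46.8% in PC9, against 22.8%, 23.5% and 24.3% in PC15, a difference of 23.9 ± 2.06 points (SE, adjusted p = 8.33e-08). The 4970-base copy averaged 49.1 ± 1.21% in PC9 and 32.7 ± 2.0% in PC15 (SD, n = 3 each, adjusted p = 6.75e-05). Small RNA was lower in PC9 for the 4968- and 4970-base copies. For the 8814-base copy, which is mostly Gypsy_6 sequence, small RNA did not pass the test (log2 difference 1.16). That copy had the largest methylation difference of the 3. The 93-base copy stayed at or under 0.6% in every library of every group.

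In HyB, 5 of 12 copies differed from PC15, 4 higher and 1 lower, where 48.6% of all TE copies tested differed, 37.8% higher and 10.8% lower. The 96-base copy had 25.1%, 13.7% and 17.8% in HyB, against 1.1%, 0% and 2% in PC15, a difference of 17.8 ± 2.89 points (SE, adjusted p = 0.000335). The 413-base copy was the one lower, with 44.2%, 31.1% and 39.0% in HyB, against 56.2%, 50.9% and 53.6% in PC15 (difference -15.5 ± 2.88 points SE, adjusted p = 0.000905). The 510-base copy was 13.5 points higher in HyB (adjusted p = 0.019), a call lost without PC15 replicate 3 (0.0663) or HyB replicate 2 (0.0707). The 8814- and 4968-base copies were higher by 7.56 points (adjusted p = 6.14e-05) and 5.36 points (adjusted p = 0.047). The last lost its call without any PC15 library (0.116, 0.0976 and 0.0737 for replicates 1, 2 and 3) or without HyB replicate 1 or 2 (0.15 and 0.172). Against PC9, 3 of 4 copies were lower in HyB, where 80.5% of all TE copies tested differed, 76.2% lower and 4.32% higher. These were the 8814-, 4968- and 4970-base copies, with differences of -29.998, -18.5 and -14.3 points (adjusted p = 1.48e-11, 1.53e-06 and 0.000253).

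N001 mycelium differed from HyB in 7 of 11 copies, 6 higher and 1 lower, where 76.7% of all TE copies tested differed, 72.9% higher and 3.83% lower. The first scaffold 8 copy had 66.0%, 75.2% and 76.5% in N001 mycelium, against 28.4%, 28.9% and 15.8% in HyB, a difference of 48.2 ± 5.10 points (SE, adjusted p = 3.59e-06). The 413-base copy had 71.8%, 73.8% and 77.0% in N001 mycelium, against 44.2%, 31.1% and 39.0% in HyB (36.1 ± 2.88 points SE, adjusted p = 2.83e-07). The 4970-, 4968-, 8814- and 96-base copies were higher by 33.0, 31.2, 28.4 and 24.7 points. The scaffold 6 copy, of the same length as the first scaffold 8 copy, went the other way. It had 24.9%, 8.4% and 11.2% in N001 mycelium, against 32.1%, 37.1% and 32.3% in HyB, a difference of -19.0 ± 3.92 points (SE, adjusted p = 0.000887). In PC15 both had been closer, at 29.98 ± 3.41% and 23 ± 1.80% (SD, n = 3 each).

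The 510-, 223-, 73- and 93-base copies did not pass between N001 mycelium and HyB. The 223-base copy kept to 32.6% to 41.0% in every library with a value. The 73-base copy had 0% to 21% and the 93-base copy 0% to 0.6%. The scaffold 7 copy was at 16.9 ± 5.99% in N001 mycelium and 5.68 ± 7.32% in PC15 (SD, n = 3 each), with no value in HyB. Between the N001 stages no copy passed. From mycelium to primordium limma called 0 of 12, and 0.103% of all TE copies tested differed. At an unadjusted p under 0.05 there was 1 HELPO2 copy, against 62 of 973 TE copies tested. From primordium to fruitbody limma called 0 of 12, and again 0.103% of all TE copies tested differed. At an unadjusted p under 0.05 there were 0 HELPO2 copies, against 26 of 975 TE copies tested. On the logit scale both counts were also 0. Differences between stages ranged from -4.90 to 5.52 points from mycelium to primordium and from -5.65 to 9.17 points from primordium to fruitbody.

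**Figure D5:**
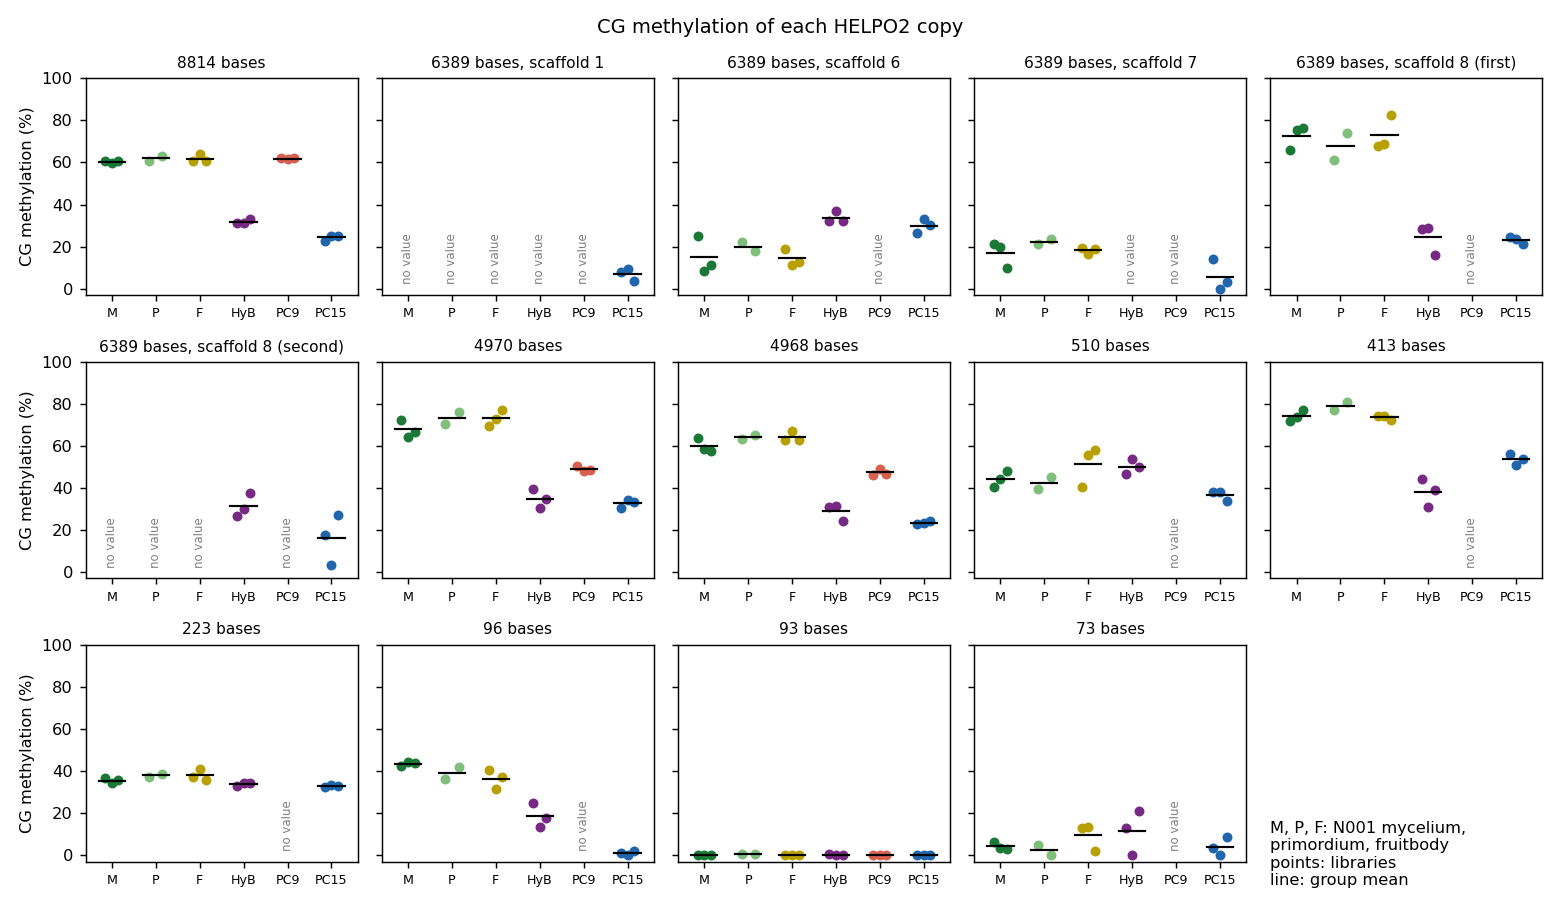
CG methylation in percent of each HELPO2 copy, by library (points) and group mean (lines), in N001 mycelium, primordium and fruitbody (M, P, F), HyB, PC9 and PC15. The N001 stages of the first scaffold 8 copy lie near 70%, far above HyB, while those of the scaffold 6 copy of the same length lie below HyB.

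Small RNA per kb and methylation were set side by side across copies within each group. Spearman's rho across copies was 0.46 in N001 mycelium, 0.67 in primordium, 0.63 in fruitbody and 0.27 in HyB (12 copies each), and 0.54 in PC15 (14 copies). For mRNA per kb it was -0.66, -0.81, -0.66 and -0.60 in the same 4 groups, and 0.09 in PC15. These are descriptions over copies that share libraries. The mRNA ranks rest on few reads, since copies below the filter on low counts had at most 75 mRNA reads each over all libraries. The 73- and 93-base copies, highest in mean mRNA per kb over groups, were both short and low in methylation. They had 74 and 75 mRNA reads over all libraries, and division by length raises the rank of such short copies. Whether the values reflect a relation of transcription to methylation was not tested. PC9 had too few copies.

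The 4 genes nearest to a copy are given with their deposited RPKM values (reads scaled to gene length and library) and no test. Gene 160328, 55 bases from the scaffold 7 copy, had 14.1, 17.6 and 17 RPKM in N001 mycelium, 9.13, 9.31 and 8.87 in HyB, 0, 0.0804 and 0 in PC9, and 30.1, 15.8 and 15.9 in PC15. Gene 1072243, 71 bases from the 510-base copy, had 22.3, 25.4 and 29.8 RPKM in N001 mycelium, 41.3, 24.8 and 23.2 in HyB, 14.3, 20.04 and 22.6 in PC9, and 24.7, 24.5 and 24.2 in PC15. For both, the PC9 libraries lay below those of PC15. Gene 1064124, 78 bases from the 93-base copy, had 67.3, 81.8 and 69.1 RPKM in PC9, against 33.8, 38.8 and 37.04 in PC15. Gene 1078711, 83 bases from the first scaffold 8 copy, had 38.3, 41.4 and 48.0 RPKM in PC9, against 21.1, 19.6 and 18.3 in PC15. What the genes encode is not known from the files.

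Other TE copies with like patterns were sought by Pearson correlation over libraries. For small RNA of the 4968-base copy, the copy with the highest mean log2 of RPM plus 1, they were Gypsy_1 on scaffold 9 (1489096 to 1495825, r = 0.89), Gypsy_5 on scaffold 7 (1812310 to 1822780, r = 0.89) and Gypsy_28 on scaffold 7 (2644056 to 2650290, r = 0.85), of 1005 copies over 18 libraries. For methylation of the same copy they were Gypsy_2 (1709388 to 1711562) and Gypsy_17 (1772494 to 1773092) on scaffold 2 and Gypsy_1 on scaffold 5 (3094635 to 3097428), all with r = 0.99, of 711 copies over 17 libraries. For mRNA of the scaffold 7 copy the best was Copia_2 on scaffold 11 (2374450 to 2374629, r = 0.55), then Gypsy_44 on scaffold 11 (894931 to 896175, r = 0.49) and Gypsy_7 on scaffold 6 (1413537 to 1413583, r = 0.48), of 911 copies. The libraries form 6 groups, so the small RNA and methylation values can reflect differences between groups. The scaffold 7 copy passed no comparison in mRNA. Its correlations are merely the highest of 911 and were not tested against chance. No p is given.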

How the data were processed

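The deposited tables give, for each TE copy and library, a read count for mRNA and for small RNA and a methylation fraction, and for genes an RPKM value and a small RNA count, per the file headers. Fractions were printed as percent. Per the submitters' processing notes the authors used STAR 2.3.16, FastQC and BS-Seeker2. The counting program, genome build, strand and handling of reads with several matches are not given in the sources used here. The deposited RPKM values gave back whole reads within 0.01 for 95.5% to 95.8% of values, and the mRNA library totals come from them. Counts were tested with edgeR 4.0.16 (R 4.3.3; quasi-likelihood, library totals, filterByExpr with a minimum count of 10) and fractions with limma 3.58.1 on percentage points, for copies with at least 2 values in both groups. All 6 groups entered 1 fit, and p-values were two-sided and adjusted over all TE copies by Benjamini-Hochberg. DESeq2 1.42.0 served as an alternative. Simulation was used to check the default edgeR and limma fits alone, in the contrast of N001 mycelium with HyB. DESeq2 and the other alternatives were not checked in this way. Summaries used Python 3.11.15, pandas 2.3.3, numpy 2.4.6 and scipy 1.17.1. Other alternatives were TMM scaling, no filter, merged libraries, a replicate block, 2 groups alone, the logit scale and leaving out libraries.

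The members and lists were chosen with earlier results of these data known. Named copies are those called in at least 1 comparison, the copies with most reads per kb, and the 3 other TE copies most like the highest HELPO2 copy, or for methylation the copy with a value in every library and the widest range over groups. Named genes are the 4 nearest to any copy, a number chosen after their values were seen. The series describes the libraries as biological replicates. Deviations of libraries with the same replicate number correlated above 0.1 in every pair for mRNA of N001 mycelium and HyB (0.365, 0.334 and 0.261), mRNA of fruitbody and primordium (0.557, 0.233 and 0.427) and small RNA of HyB and PC9 (0.204, 0.129 and 0.174). In methylation of fruitbody and primordium, with 2 pairs, the values were 0.685 and 0.515, too few pairs to take the numbers as pairing. Elsewhere at least 1 pair was at or under 0.1, and the numbers are taken as names. Fold bounds pool the reads of each group, and their floors of 3 reads cover counting error alone. Sequences were not used here.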

Additional observations from a re-analysis of the deposited data

How the results depend on the processing

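Of the single-copy values under alternatives, 444 kept their direction and side of the threshold, 48 lost their call and 4 reversed. The reversals were all in mRNA. The scaffold 6 copy in PC9 against PC15 went to 1.47 under TMM inside the TE table and 2.95 under DESeq2, and the 8814-base copy in HyB against PC15 to 1.13 and 2.39. These settings scale inside the TE table, whose median differed from 0 relative to library totals. In PC9 against PC15 they moved that median only part of the way to 0.

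In mRNA, the count for HyB against PC15 (1) was 2 with TMM inside the TE table, 0 with TMM over genes and TE copies, 6 without the filter, 3 by DESeq2, 0 with close libraries merged and 0 to 1 with a library left out. PC9 against PC15 (2) gave 7 without the filter. HyB against PC9 (1) gave 2 by DESeq2 and 1 to 2 with a library left out, and N001 mycelium against HyB (1) gave 2 by DESeq2. Without the copy that holds Gypsy_6, an alternative chosen after seeing the data, these counts were 0, 1, 0 and 0 in the order given.

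In small RNA, N001 mycelium against HyB (0) gave 2 with TMM inside the TE table, 1 without the filter, 3 by DESeq2, 1 with these groups alone and 0 to 1 with a library left out. HyB against PC15 (4) gave 1 with TMM over genes and TE copies and 1 to 3 with a library left out. HyB against PC9 (8) gave 5 with these groups alone. In methylation, HyB against PC15 (5) gave 2 over copies with a value in every library and 3 for differences of at least 10 points, and N001 mycelium against HyB (7) gave 3 over copies with a value in every library. Counts between stages stayed at 0 in every setting run.

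The mRNA total without its most-read copy was 1.79 RPM in fruitbody, 2.36 in HyB and 3.76 in PC15, and the fruitbody total was 2.3 under TMM over genes and TE copies. The small RNA total of PC9 was 450.1 RPM under the same TMM, and that of PC15 without its most-read copy was 17231 RPM. Median methylation over copies with a value in every library was 60.2%, 63.1% and 63.0% in the N001 stages and 30.2% in HyB. The length-weighted mean was 48.3%, 50.9% and 50.1% in the N001 stages, 54.4% in PC9 and 20.4% in PC15. Except where a setting's own construction shows it, the cause was not tested.

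With the replicate number as a block, small RNA of HyB against PC15 gave 3 copies, as the 73-base copy had an adjusted p of 0.059, and the block changed no other HELPO2 count.

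Over all TE copies, calls in mRNA of PC9 against PC15 numbered 379, against 574 without the filter and 236 by DESeq2, and of HyB against PC15 333, against 183 by DESeq2. Small RNA gave 293 in PC9 against PC15 and 89 with these groups alone, 143 in HyB against PC15 and 73 with TMM over genes and TE copies, 224 in HyB against PC9 and 108 with that TMM, 47 with these groups alone and 401 without PC9 replicate 1, and 7 higher with 94 lower in N001 mycelium against HyB, 57 in all with that TMM, 209 by DESeq2 and 157 with these groups alone. Methylation of HyB against PC15 gave 470 and 294 for at least 10 points. Small RNA depth of 191411 reads in the smallest library limits copies with few reads, as does the mRNA level of the family.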
